A study of Mus musculus with 6 samples.

Results

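The nuclear genes of the mitochondrial respiratory chain and ATP synthase were examined in MC38 cells, a mouse colon tumour line grown in culture. Members were the protein-coding genes whose symbols begin with Nduf, Uqcr, Atp5 or Cox followed by a digit, together with Cyc1, the succinate dehydrogenase subunits Sdha to Sdhd and their assembly factors Sdhaf1 to Sdhaf4. This rule took 107 of the 52636 genes in the table, and it used names and no measured value. By complex there were 45 genes for complex I, 8 for complex II, 9 for complex III, 29 for complex IV and 16 for complex V. Ndufa4, named after complex I, was counted with complex IV, of which its protein is a subunit, and Atp5sl, named after ATP synthase, was counted with the assembly factors of complex I.

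RNA from 6 libraries was sequenced: 3 carried the genotype M1E5 WT, 3 the genotype M1E5 Zfx F5, and none had been treated. M1E5 is the derivative of MC38 that both groups share. Zfx, an X-linked zinc finger transcription factor gene, was targeted in F5 with CRISPR ribonucleoprotein delivered by lipid transfection, and F5 is 1 edited line, so a difference from WT that has nothing to do with the edit cannot be told apart from an effect of it. The design text describes cells cultured in vitro, whereas the extract protocol describes sorted tumour cells. Whether libraries of 1 group come from separate cultures is not stated, so p-values cover the spread among the sequenced libraries alone, and that spread may be technical. Replicate numbers follow accession order and only name a library.

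The libraries held 18876673 to 24241864 reads. Zfx mRNA measured 64.4, 69.7 and 68.9 CPM (read counts scaled to a library total of 1000000) in the WT libraries and 125, 129 and 122 CPM in the libraries labelled Zfx F5, a log2 difference of 0.89 (standard error, SE, 0.042; limma adjusted p = 3.47e-18). The targeted gene was therefore higher, not lower, and the level of its mRNA did not check the label. Of the defining epithelial genes Epcam and Krt19 had no read in any library, and 1 of 7 epithelial markers, Cdh1, passed the filter. The 7 summed to 0.636 to 1.07 CPM in WT and 3.79 to 4.13 CPM in the libraries labelled Zfx F5. Part of the latter sum was Krt8, below the filter, with 0 reads in every WT library and 39, 34 and 41 reads in the others (1.79 CPM on average). The 5 fibroblast markers, 3 of them tested, summed to 389 to 400 CPM in WT and 156 to 159 CPM in the others, with Dcn and Pdgfra lower and Pdgfrb higher (log2 differences of -1.82, -1.65 and 0.74). Of the 8 myeloid gene models, 3 were tested and the sum was 11.0 to 13.6 against 25.6 to 27.8 CPM. The only myeloid call was Lyz2, at 0.437 CPM on average in WT and 15.3 CPM in the others, while Cd68 and Cd14 were not called. The 4 endothelial markers, of which Pecam1 and Egfl7 were tested and both higher, summed to 12.8 to 13.7 against 33.9 to 39.0 CPM. The defining endothelial gene Kdr and the macrophage gene Adgre1 had no read in any library, Ptprc had at most 0.053 CPM, and the 4 T and NK cell markers summed to at most 0.189 CPM. The part of these markers in the results below was not tested.

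The respiratory chain passes electrons from NADH (complex I) and succinate (complex II) through coenzyme Q, complex III and cytochrome c to oxygen (complex IV), and complexes I, III and IV pump protons across the inner mitochondrial membrane. ATP synthase, complex V, lets the protons flow back and makes ATP. Most subunits are encoded in the nucleus and imported, a few are encoded by mitochondrial DNA, and dedicated assembly factors build the complexes without staying in them. The nuclear respiratory factor NRF1, the ETS factor GABP and YY1 are known to bind many promoters of these nuclear genes.

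Promoter sequences were available from RefSeq (GRCm38.p6, from 250 bases before to 50 after the most upstream start) for 88 of the 107 members. An NRF1 core motif, GCGCATGC, was found on either strand in 12 of the 88 windows (13.6%), against 6.09% of the windows of 8786 tested genes and 2.80% of all 27025. An ETS core, CCGGAAG, was found in 25 (28.4%), against 20.4% and 9.14%. A YY1 core, AAGATGGC, was found in 13 (14.8%), against 5.20% and 2.87%. The palindrome AGGCCT, the core of the motif known for ZFX, was found in 6 (6.82%), against 10.8% of tested genes and 10.3% of all windows. At least 1 of the NRF1, ETS and YY1 cores was in 42 of the 88 windows and at least 2 of them were in 8. The NRF1 core can overlap itself on the opposite strand, as in Ndufaf4, and a match describes letters and not bound protein. The stretches below are the 120 bases before the RefSeq start of some genes named in the results. They were taken from genes whose start in the GENCODE model lies at most 9 bases further upstream, and not all such genes are printed. For Sdhd the GENCODE start lies downstream of the RefSeq start (offset -37 bases). Capitals mark the motif. Ndufaf4 (chr4:24897963-24898082, plus strand) holds the NRF1 core on both strands. The ETS core stands forward in Ndufaf1 (chr2:119662835-119662954, minus strand), Uqcr11 (chr10:80406822-80406941, minus strand) and Cox10 (chr11:64079473-64079592, minus strand). It stands in reverse in Sdhd (chr9:50603850-50603969, minus strand), Uqcrh (chr4:116075071-116075190, minus strand) and Atp5e (chr2:174464102-174464221, minus strand).
Ndufaf1: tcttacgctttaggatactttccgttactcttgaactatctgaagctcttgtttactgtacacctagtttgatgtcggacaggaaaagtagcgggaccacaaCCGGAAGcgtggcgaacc
Ndufaf4: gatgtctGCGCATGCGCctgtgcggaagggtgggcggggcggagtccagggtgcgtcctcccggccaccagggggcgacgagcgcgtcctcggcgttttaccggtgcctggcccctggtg
Sdhd: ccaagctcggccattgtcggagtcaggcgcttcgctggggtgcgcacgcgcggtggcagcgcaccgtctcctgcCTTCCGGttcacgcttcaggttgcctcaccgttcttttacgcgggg
Uqcrh: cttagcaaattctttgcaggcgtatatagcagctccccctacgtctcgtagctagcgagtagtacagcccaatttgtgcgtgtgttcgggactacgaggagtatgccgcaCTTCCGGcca
Uqcr11: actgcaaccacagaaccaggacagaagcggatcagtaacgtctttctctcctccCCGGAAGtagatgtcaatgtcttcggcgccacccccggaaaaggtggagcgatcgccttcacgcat
Cox10: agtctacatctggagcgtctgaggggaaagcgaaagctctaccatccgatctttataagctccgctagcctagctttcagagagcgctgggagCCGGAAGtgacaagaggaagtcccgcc
Atp5e: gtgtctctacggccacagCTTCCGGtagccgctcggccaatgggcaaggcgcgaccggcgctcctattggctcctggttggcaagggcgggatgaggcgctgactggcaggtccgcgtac

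Among the respiratory chain genes more were higher than lower in the libraries labelled Zfx F5, in complexes I to V alike. Of the 107 members, 98 passed the filter on low values, a mean of at least 0 on the log2 scale over the 6 libraries. In limma 58 of the 98 (59.2%) were higher and 14 (14.3%) lower at an adjusted p under 0.05, and 26 were not called. Over all 12279 tested genes, 37.0% were higher and 35.9% lower, so calls in either direction were about as frequent among the members, 72 of 98, as over all genes, 72.9%. The 3 values of a group lay wholly above or below the 3 of the other for 71 members, against 74.3% of all tested genes. The median log2 difference was 0.20 over the tested members and 0.02 over all tested genes.

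The differences were small. The range over members ran from -0.63 for Ndufa8 to 1.48 for Sdhaf4 on the log2 scale. At least 1.25-fold higher levels were found for 31 members, against 24.5% of all tested genes, and at least 1.5-fold higher levels for 9, against 11.5%. Summed over the tested members, the level was 9087 ± 234.8 CPM (SD, n = 3) in WT and 10610 ± 145.3 CPM (SD, n = 3) in the libraries labelled Zfx F5, a ratio of 1.17. By complex this ratio was 1.16 for complex I, 1.11 for complex II, 1.13 for complex III, 1.14 for complex IV and 1.22 for complex V. The median log2 differences of the tested members were 0.24, 0.26, 0.25, 0.18 and 0.12 in that order. Complex V thus had the largest ratio and the smallest median. Abundant genes weigh most in a sum, such as Atp5b at 1045 CPM on average in WT and 1449 CPM in the others. All levels are relative levels in bulk RNA. There, a change in the share of cells that express a gene and a change in mRNA per cell cannot be told apart.

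**Figure D1:**
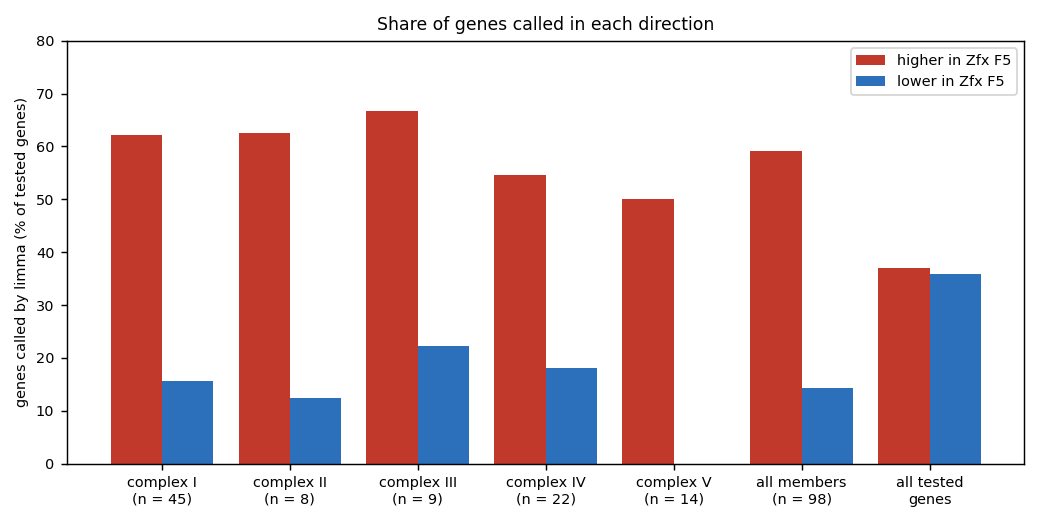
Bars give the share of tested genes called higher (red) or lower (blue) by limma in the libraries labelled Zfx F5, for each complex, for all 98 tested members and for all 12279 tested genes, on an axis from 0. Higher calls outnumber lower calls in each complex, while over all tested genes 37.0% were higher and 35.9% lower.

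**Figure D2:**
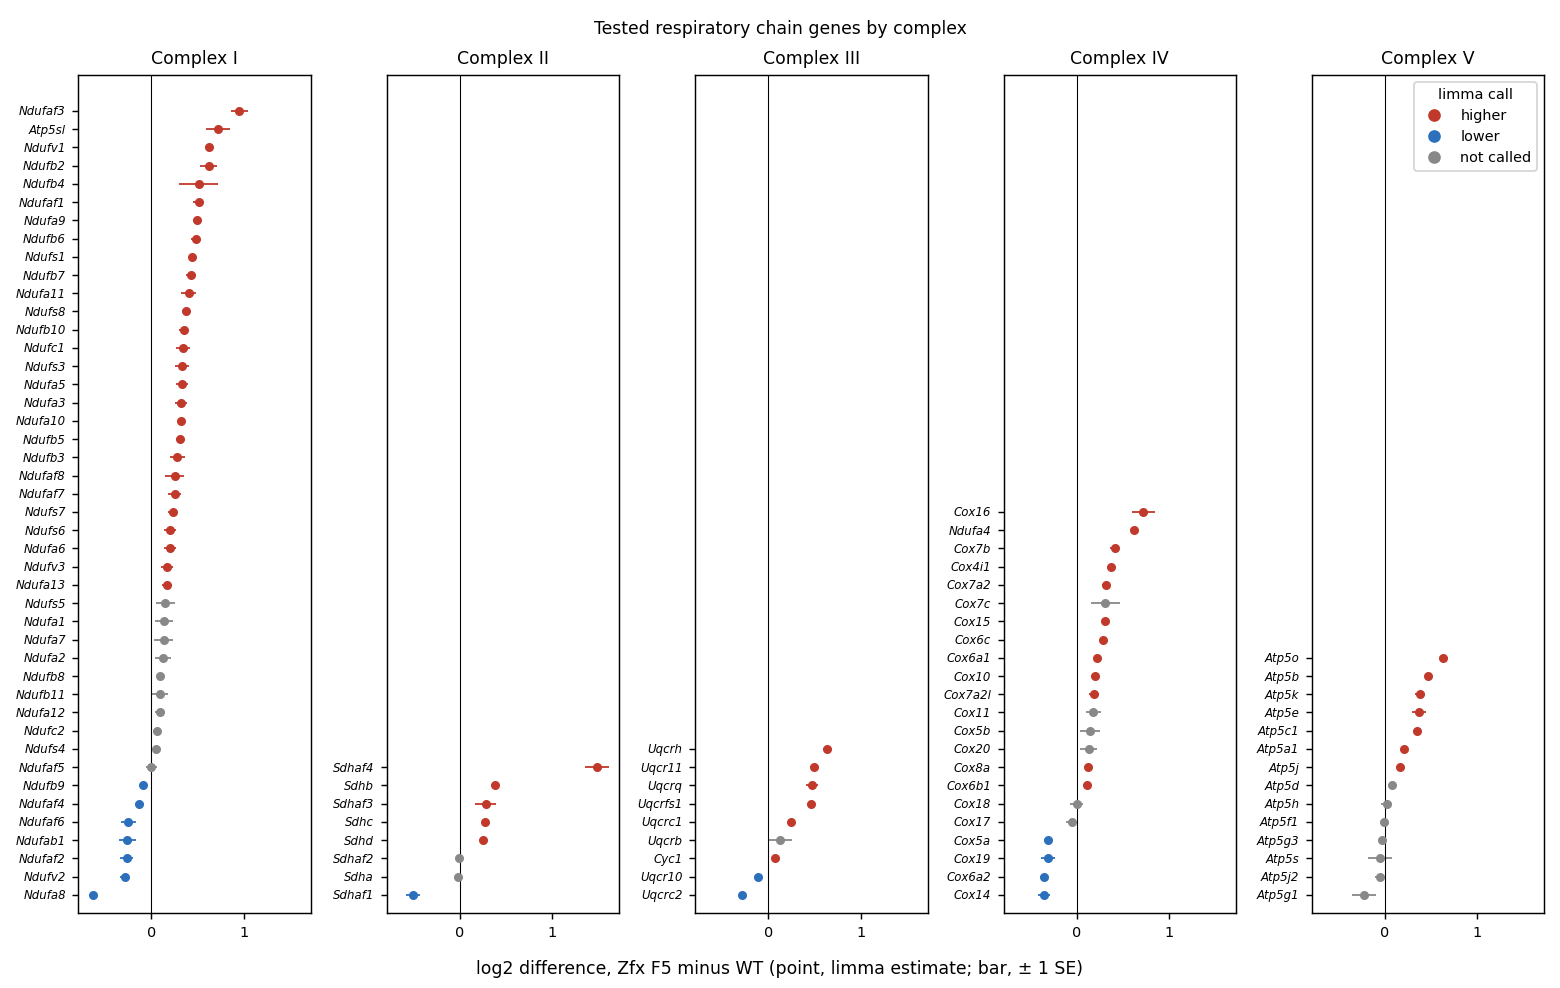
Each point is the limma log2 difference of a tested member (1 member is not shown), libraries labelled Zfx F5 minus WT, with a bar of 1 SE on either side, by complex and coloured by call. Most red points lie between 0 and 0.65, with Sdhaf4 at 1.48 as the farthest to the right and Ndufa8 at -0.63 as the farthest to the left.

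Complex I, NADH dehydrogenase, had 28 of 45 members higher (62.2%) and 7 lower (15.6%), against 37.0% and 35.9% of all tested genes. Its median log2 difference was 0.24. Without Zfx F5 replicate 3, 4 of its members were lower. Its 7 core subunits encoded in the nucleus carry the flavin and the iron-sulphur clusters that take electrons from NADH to coenzyme Q. Of these, 6 rose and Ndufv2 fell. Ndufv1 (ENSMUSG00000037916, mm10 chromosome 19 from 4007384 to 4012806, minus strand) encodes the subunit that binds NADH and the flavin. It measured 155, 146 and 141 CPM in WT and 227, 224 and 231 CPM in the libraries labelled Zfx F5, a difference of 0.62 in log2 units (SE 0.037; limma adjusted p = 9.74e-16). Its groups did not overlap. Its promoter is among the 6 with AGGCCT, of which 5 belong to tested genes, 3 of them higher and 1, Ndufaf2, lower. The sequence was rarer in member promoters (6.82%) than in those of tested genes (10.8%). Ndufv2, whose product holds an iron-sulphur cluster beside that of Ndufv1, went the other way, from 58.5, 58.2 and 62.5 CPM to 47.7, 48.2 and 51.2 CPM (log2 difference -0.29, SE 0.049; limma adjusted p = 5.25e-06). The groups of Ndufv2 did not overlap either, so the genes of this NADH-binding pair moved in opposite directions.

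Other core subunits of complex I rose by smaller amounts. Ndufs1, which encodes the largest iron-sulphur subunit, measured 94.3, 92.7 and 92.7 CPM in WT and 127, 127 and 124 CPM in the others (log2 difference 0.44, SE 0.038; limma adjusted p = 8.65e-12). Ndufs8, which holds clusters near the coenzyme Q site, measured 107, 102 and 97.7 CPM against 135, 126 and 133 CPM (log2 difference 0.37, SE 0.041; limma adjusted p = 2.24e-09). Ndufs7, which lines the coenzyme Q site, had a log2 difference of 0.23 (SE 0.048). Ndufs3, another subunit of the matrix arm, had a log2 difference of 0.33 (SE 0.076) and shares 39.7% of its windows of 50 bases with other genes, mostly with the copy Gm12251. The sum of Ndufs3 and Gm12251 rose from 26.8 ± 0.964 to 33.6 ± 2.51 CPM (SD, n = 3 each) with no overlap, a ratio of 1.25.

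The accessory subunits of complex I surround the core and are needed for its stability. In the matrix arm 5 of 9 rose (55.6%) and none fell in limma, against 37.0% and 35.9% of all tested genes. The remaining 4 had log2 differences of 0.05 to 0.13. In the membrane arm 12 of 19 rose (63.2%) and 2 fell (10.5%). Ndufb2 rose from 8.30, 8.53 and 8.83 CPM to 14.5, 12.8 and 12.2 CPM (log2 difference 0.62, SE 0.092; limma adjusted p = 5.69e-07). Ndufa8 (ENSMUSG00000026895, chromosome 2 from 36036326 to 36049406, minus strand), a cysteine-rich subunit on the intermembrane side, was the member that fell furthest. It measured 95.7, 87.9 and 88.8 CPM in WT and 57.1, 58.4 and 59.9 CPM in the libraries labelled Zfx F5, 1.55-fold lower (log2 difference -0.63, SE 0.045; limma adjusted p = 6.75e-14). No library of a group came near the other, and none of its windows of 50 bases is shared with another gene. The second membrane arm gene that fell, Ndufb9, had a difference of -0.09 in log2 units (SE 0.036; limma adjusted p = 0.0220), and its call was lost without WT replicate 1, Zfx F5 replicate 2 or Zfx F5 replicate 3 (0.127, 0.0831 and 0.0583), under median centring (0.110) and without trend and robust moderation (0.0970). Ndufab1, the mitochondrial acyl carrier protein that also sits in complex I, measured 12.6, 12.9 and 16.3 CPM against 11.8, 12.2 and 10.6 CPM (log2 difference -0.26, SE 0.095; limma adjusted p = 0.0163). Without WT replicate 3, the highest of the 3, its limma adjusted p was 0.185, without Zfx F5 replicate 3 it was 0.0978, and without trend and robust moderation 0.0802.

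Assembly factors of complex I were mixed, with 5 of 9 higher (55.6%) and 3 lower (33.3%), against 37.0% and 35.9% of all tested genes. Ndufaf3 (ENSMUSG00000070283), an early factor for the coenzyme Q module, measured 13.9, 11.1 and 10.3 CPM in WT and 22.1, 22.9 and 22.6 CPM in the others, 1.93-fold higher (log2 difference 0.95, SE 0.089; limma adjusted p = 3.10e-10). Its partner Ndufaf4, with which it forms a complex, had the opposite sign, at 43.2, 44.0 and 42.1 CPM against 41.1, 38.5 and 38.6 CPM (log2 difference -0.13, SE 0.052; limma adjusted p = 0.0255). The call on Ndufaf4 was lost without WT replicate 2, Zfx F5 replicate 2 or Zfx F5 replicate 3 (limma adjusted p = 0.0808, 0.0871 and 0.0838), under median centring (0.0740) and with no filter (0.0561). Atp5sl, known in human cells as a membrane arm assembly factor, rose 1.65-fold from a low level of 4.19, 3.87 and 3.26 CPM to 6.09, 6.73 and 5.89 CPM (limma adjusted p = 1.42e-05). Ndufaf1, a core factor of the membrane arm intermediate, rose 1.43-fold, and Ndufaf2, a late factor, fell with a difference of -0.27 in log2 units (SE 0.066; limma adjusted p = 0.000521).

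Complex II, succinate dehydrogenase, is also an enzyme of the citric acid cycle. It had 5 of 8 members higher (62.5%) and 1 lower (12.5%), against 37.0% and 35.9% of all tested genes. Its flavin subunit Sdha was not called, at 345, 331 and 335 CPM in WT and 327, 341 and 329 CPM in the libraries labelled Zfx F5 (log2 difference -0.02, SE 0.032; limma adjusted p = 0.598). The iron-sulphur subunit Sdhb (ENSMUSG00000009863) rose from 92.9, 88.2 and 88.7 CPM to 119, 117 and 114 CPM (log2 difference 0.38, SE 0.040; limma adjusted p = 6.00e-10). The membrane anchors Sdhc and Sdhd rose with log2 differences of 0.27 (SE 0.036) and 0.25 (SE 0.035). The groups of Sdha overlapped and those of the other 3 subunits did not.

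The assembly factors of complex II gave the member with the largest difference. Sdhaf4 (ENSMUSG00000026154, chromosome 1 from 23995939 to 24005656, minus strand) helps the flavin subunit join the iron-sulphur subunit. It measured 6.33, 4.13 and 5.78 CPM in WT and 13.7, 14.8 and 16.2 CPM in the others, 2.78-fold higher (log2 difference 1.48, SE 0.129; limma adjusted p = 3.60e-09). Every library labelled Zfx F5 was above every WT library. Sdhaf1, which helps insert the iron-sulphur clusters of Sdhb, went down from 18.9, 18.2 and 18.8 CPM to 13.3, 13.7 and 12.3 CPM (log2 difference -0.51, SE 0.076; limma adjusted p = 5.43e-07). Because 69.0% of its windows lie in the overlapping gene E130208F15Rik, at 0.58 and 0.371 CPM on average, reads of the 2 genes cannot be fully told apart. Sdhaf3 rose with a difference of 0.28 in log2 units (SE 0.113; limma adjusted p = 0.0258) although its groups overlapped, and it lost the call without WT replicate 1, WT replicate 2 or Zfx F5 replicate 3 (0.0565, 0.124 and 0.183) and without trend and robust moderation (0.0610). Sdhaf2, which helps attach the flavin, had a log2 difference of -0.01 (SE 0.047).

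Complex III passes electrons from coenzyme Q to cytochrome c. It had 6 of 9 members higher (66.7%) and 2 lower (22.2%), against 37.0% and 35.9% of all tested genes. The Rieske iron-sulphur protein gene Uqcrfs1 rose from 76.6, 78.3 and 76.1 CPM to 110, 104 and 104 CPM (log2 difference 0.46, SE 0.041; limma adjusted p = 1.48e-11). The other catalytic subunit of nuclear origin, cytochrome c1 (Cyc1), measured 282, 282 and 279 CPM against 306, 287 and 294 CPM, a difference of 0.07 in log2 units (SE 0.033; limma adjusted p = 0.0477). The call on Cyc1 was lost under TMM scaling (limma adjusted p = 0.312), with no filter (0.0660), without trend and robust moderation (0.138) and when any library except Zfx F5 replicate 2 was left out (0.0615 to 0.283). Among the accessory subunits, the hinge protein gene Uqcrh (ENSMUSG00000063882) measured 39.7, 36.8 and 36.3 CPM in WT and 58.9, 58.4 and 58.7 CPM in the others (log2 difference 0.64, SE 0.050; limma adjusted p = 8.76e-13). The small subunits Uqcr11 and Uqcrq rose 1.42-fold and 1.38-fold. The ETS core printed above lies in the promoters of both Uqcrh and Uqcr11.

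The 2 large core proteins of complex III, relatives of mitochondrial processing peptidases, moved in opposite directions. Uqcrc1 rose from 265, 258 and 242 CPM to 312, 295 and 306 CPM (log2 difference 0.25, SE 0.035; limma adjusted p = 1.73e-07). Uqcrc2 (ENSMUSG00000030884) fell from 205, 187 and 202 CPM to 167, 164 and 159 CPM (log2 difference -0.28, SE 0.037; limma adjusted p = 9.55e-08). Neither pair of groups overlapped, and no test of the difference between the 2 genes was made. Uqcr10 had a difference of -0.11 in log2 units (SE 0.041; limma adjusted p = 0.0165), and this call was lost with median centring (limma adjusted p = 0.0716) and without any of WT replicate 1 (0.0589), Zfx F5 replicate 1 (0.0651) and Zfx F5 replicate 3 (0.0653). Without any of these 3 libraries, 1 member of complex III was lower instead of 2.

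**Figure D3:**
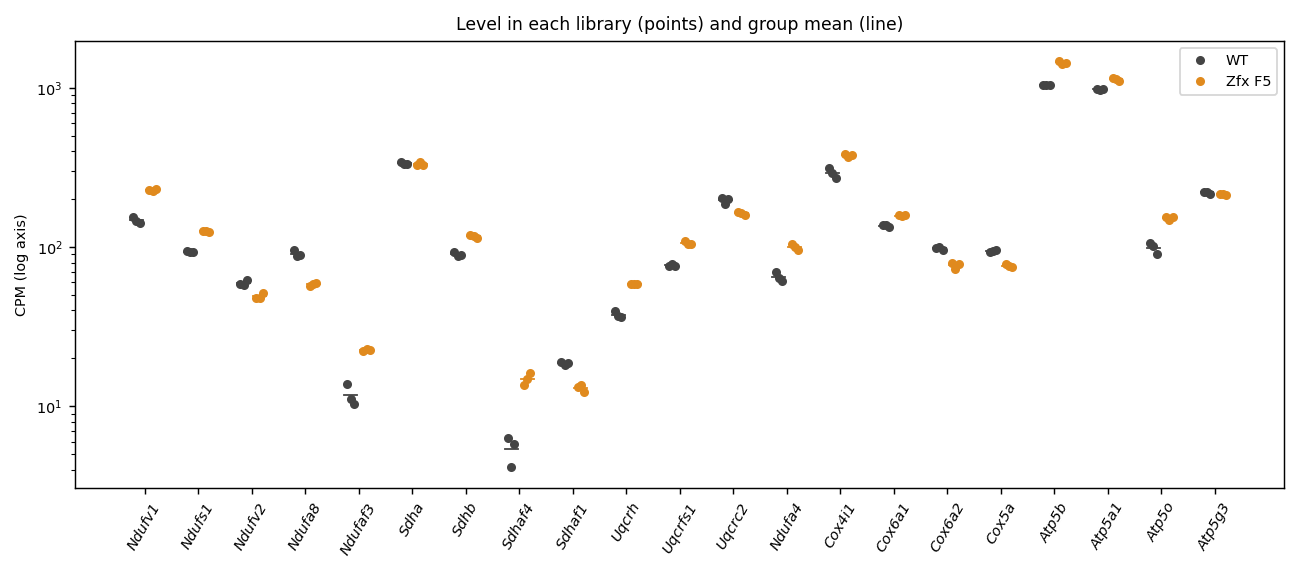
Points are the CPM of each library on a log axis, grey for WT and orange for the libraries labelled Zfx F5, with a line at each group mean, for 21 members named in the text. Sdhaf4 and Ndufaf3 stand clearly higher in the orange points, Ndufa8, Sdhaf1, Uqcrc2 and Cox5a lower, and for Sdha and Atp5g3 the groups overlap.

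Complex IV, cytochrome c oxidase, had 12 of its 22 tested members higher (54.5%) and 4 lower (18.2%), against 37.0% and 35.9% of all tested genes. Of its 19 subunit genes, 12 passed the filter, and 8 of those were higher and 2 lower. Ndufa4 (ENSMUSG00000029632), a loosely held subunit, rose from 69.6, 63.7 and 61.7 CPM to 104, 100 and 96.5 CPM (log2 difference 0.62, SE 0.046; limma adjusted p = 2.76e-13). Cox7b rose from 42.9, 40.7 and 40.3 CPM to 56.3, 55.3 and 52.7 CPM (log2 difference 0.41, SE 0.050; limma adjusted p = 1.80e-08). Cox5a, a subunit on the matrix side, moved the other way, from 92.6, 95.1 and 96.5 CPM to 78.9, 76.1 and 74.9 CPM (log2 difference -0.31, SE 0.041; limma adjusted p = 8.62e-08). The groups of these 3 genes did not overlap.

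Several complex IV subunits exist as a common form and a form of heart and skeletal muscle, testis or hypoxic cells. Cox4i1, the common form of subunit 4, rose from 315, 291 and 272 CPM to 385, 367 and 382 CPM (limma adjusted p = 2.42e-07), while Cox4i2 was listed at 0 reads in all 6 libraries. The common forms Cox7a2 and Cox8a rose 1.25-fold and 1.09-fold, while Cox8b and Cox8c were listed at 0 reads in all libraries and the muscle form Cox7a1 had 3 reads in WT and 9 in the others. The common Cox6b1 had a difference of 0.11 in log2 units (SE 0.045; limma adjusted p = 0.0398) that lost its call under TMM scaling (0.148), without trend and robust moderation (0.181) and without any 1 of WT replicates 2 and 3 and the 3 libraries labelled Zfx F5, and its testis counterpart Cox6b2 was listed at 0 reads. A count of 0 allows a level of up to 3 reads in a library, 0.124 to 0.159 CPM, for counting error only. The assembly factor genes Pet117 of complex IV and Atpaf1 of complex V, which many tissues express, were likewise listed at 0 in all 6 libraries. A listed 0 is therefore not read here as absence of the mRNA.

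Subunit 6a was the exception, with both forms well above the filter and moving in opposite directions. The liver-type form Cox6a1 rose from 137, 138 and 133 CPM to 159, 156 and 159 CPM (log2 difference 0.22, SE 0.035; limma adjusted p = 2.78e-06). The heart and muscle form Cox6a2 (ENSMUSG00000030785, chromosome 7 from 128205435 to 128206387, minus strand) fell from 99.1, 100 and 96.4 CPM to 80.0, 73.3 and 78.8 CPM (log2 difference -0.35, SE 0.043; limma adjusted p = 1.20e-08). Per kilobase of exon, Cox6a2 stood at 145 CPM in WT and 114 CPM in the others, and Cox6a1 at 238 and 277 CPM. Other genes of muscle and brown fat were nearly silent, with Ucp1, Ckm, Myh6 and Actn3 summing to at most 0.557 CPM in a library. Only 3.33% of the windows of Cox6a2 are shared, with the overlapping gene Itgad.

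The assembly factors of complex IV were split, with 3 of 9 higher (33.3%) and 2 lower (22.2%), against 37.0% and 35.9% of all tested genes. Cox14 and Cox19, known for Cox1 synthesis and copper delivery, fell with log2 differences of -0.35 (SE 0.067; limma adjusted p = 0.000140) and -0.31 (SE 0.078; limma adjusted p = 0.000775). Cox16 rose from 4.88, 4.77 and 3.71 CPM to 7.55, 7.39 and 7.03 CPM (limma adjusted p = 6.19e-06), but 74.5% of its windows lie in the overlapping gene Gm20498, so its reads are uncertain. The heme A synthesis genes Cox10 and Cox15 both rose, with log2 differences of 0.20 (SE 0.045; limma adjusted p = 0.000214) and 0.31 (SE 0.039; limma adjusted p = 2.01e-08). Cox7a2l, which joins complexes III and IV into supercomplexes, rose 1.14-fold (limma adjusted p = 0.00252).

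Complex V, ATP synthase, had 7 of 14 tested members higher (50.0%) and none lower in limma, against 37.0% and 35.9% of all tested genes. Of the 5 genes for the catalytic head and its central rotor, 4 rose. Atp5b (ENSMUSG00000025393, chromosome 10 from 128083273 to 128090391, plus strand), the beta subunit that makes ATP, measured 1048, 1045 and 1041 CPM in WT and 1477, 1425 and 1446 CPM in the libraries labelled Zfx F5 (log2 difference 0.47, SE 0.026; limma adjusted p = 2.49e-16). Atp5a1, the alpha subunit that pairs with it, measured 986, 971 and 989 CPM against 1155, 1142 and 1099 CPM (log2 difference 0.21, SE 0.028; limma adjusted p = 8.64e-08). Both sets of groups were far apart relative to the spread between libraries. Per kilobase of exon these genes stood at 545 and 338 CPM in WT and at 757 and 390 CPM in the others; the difference between the 2 genes was not tested.

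The central rotor and the peripheral stalk join the head to the membrane. The gamma subunit gene Atp5c1, the rotor shaft, rose from 116, 108 and 113 CPM to 144, 143 and 141 CPM (limma adjusted p = 1.61e-09), and the small rotor subunit gene Atp5e rose 1.30-fold (limma adjusted p = 0.00230). The rotor subunit gene Atp5d had a difference of 0.08 in log2 units (SE 0.039; limma adjusted p = 0.0815). It was called under median centring (0.0117), with no filter (0.0369) and without WT replicate 2 (0.0387) or Zfx F5 replicate 2 (0.0196). In the peripheral stalk, Atp5o rose from 106, 101 and 90.2 CPM to 155, 148 and 154 CPM (limma adjusted p = 2.32e-11), with 47.6% of its windows shared. Atp5j rose 1.12-fold (limma adjusted p = 0.000413), whereas Atp5f1 and Atp5h had log2 differences of -0.01 (SE 0.036) and 0.02 (SE 0.059). Of the small membrane subunits, Atp5k rose 1.30-fold (limma adjusted p = 4.01e-07) and Atp5j2 had a log2 difference of -0.05 (SE 0.057).

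The c ring turns as protons pass through it and is encoded by 3 genes that make the same mature protein. Per kilobase of exon, Atp5g3 stood at 305 CPM in WT, Atp5g1 at 1.21 CPM and Atp5g2 at 0.331 CPM. The exon lengths used were 724, 4912 and 731 bases in that order, so division by length lowers Atp5g1 most. Before it the WT means were 221, 5.93 and 0.242 CPM. Atp5g3 measured 222, 223 and 217 CPM in WT and 217, 217 and 212 CPM in the libraries labelled Zfx F5 (log2 difference -0.03, SE 0.033; limma adjusted p = 0.363). Atp5g1 measured 6.68, 6.09 and 5.03 CPM against 5.24, 5.36 and 4.53 CPM (log2 difference -0.23, SE 0.129; limma adjusted p = 0.114). Its copy Gm10039 took more reads than Atp5g1 itself, 39.4, 34.2 and 30.6 CPM in WT and 47.7, 44.9 and 47.8 CPM in the others. The sum of Atp5g1 and Gm10039 was 40.7 ± 5.20 against 51.9 ± 1.38 CPM (SD, n = 3 each), with no overlap, so for this gene the direction depends on how reads of the copy are assigned. Atp5g2 had 16 reads in WT and 7 in the others, below the filter. It shares 38.35% of its windows with other genes, so its level is uncertain too.

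Reads of 50 bases place genes with copies less surely, and the library kit named in the labels does not mark strand. Among the 42 tested members with no window of 50 bases in another gene, 26 were higher (61.9%) and 7 lower (16.7%). Among the 56 with a shared window, 32 were higher (57.1%) and 7 lower (12.5%). Among the 19 with at least 20% of windows shared, 6 were higher (31.6%) and 4 lower (21.1%). Over all tested genes 37.0% were higher and 35.9% lower. The share of higher calls among the 19 was thus below that of all tested genes. For Cox6c, which rose 1.22-fold (limma adjusted p = 2.29e-08), the sum with its copy Gm6265 rose from 178 ± 4.34 to 219 ± 1.32 CPM (SD, n = 3 each). For Atp5h, the sum with Gm10250 was 62.2 ± 4.55 and 65.0 ± 1.55 CPM (SD, n = 3 each), with overlap. Atp5l, with 84.8% of its windows shared, had 3 and 4 reads and was not tested.

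The 9 members below the filter held few reads. Beside Cox4i2, Cox6b2, Cox8b, Cox8c, Cox7a1, Atp5g2 and Atp5l, these were Ndufa4l2, a gene induced by hypoxia, with 4 reads in each group, and Cox7b2, with 2 reads in WT and 13 in the others. The ratio of WT to Zfx F5 levels of Cox7b2 was 0.147, with an exact Clopper-Pearson 95% interval of 0.0161 to 0.651 that covers counting error only.

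Subunits and assembly factors were also set side by side. Of 76 tested subunit genes 48 were higher (63.2%) and 8 lower (10.5%), with a median log2 difference of 0.22. Of 22 assembly factors 10 were higher (45.5%) and 6 lower (27.3%), with a median of 0.16. The shares over all tested genes were 37.0% and 35.9%. Whether subunits and assembly factors differ was not tested. Of the tested members with an ETS core in their promoter, 19 of 24 were higher and 2 lower, with a median log2 difference of 0.30, and of those without, 31 of 58 were higher and 8 lower, with a median of 0.18. For the NRF1 core the counts were 7 higher and 2 lower of 10 with it and 43 and 8 of 72 without. For the YY1 core they were 8 and 0 of 13 with it and 42 and 10 of 69 without. For AGGCCT they were 3 and 1 of 5 with it and 47 and 9 of 77 without. These counts are descriptions of few genes. Calls among all tested genes that carry each core were not counted, so a link between a core and the direction was not tested.

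Subunits encoded by mitochondrial DNA were also more often higher than lower. Of the 13 genes, 7 (53.8%) were higher and none lower in limma, against 37.0% and 35.9% of all tested genes. Their median log2 difference was 0.41, and their summed level was 9283 to 11419 CPM in WT and 12263 to 13562 CPM in the others. The complex I gene mt-Nd6, the one on the light strand, rose from 26.6, 33.5 and 32.1 CPM to 48.5, 51.0 and 51.4 CPM (log2 difference 0.72, SE 0.069; limma adjusted p = 8.22e-09). The complex I genes mt-Nd2 and mt-Nd3 rose 1.52-fold (limma adjusted p = 0.00633) and 1.58-fold (limma adjusted p = 0.000722), and mt-Cytb of complex III had a difference of 0.19 in log2 units (SE 0.109; limma adjusted p = 0.188). Nuclear copies of mitochondrial DNA make these values less certain than the others.

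The listed genes for expression of mitochondrial DNA rose, Tfam least, while among the nuclear regulators some fell and some rose. The mitochondrial RNA polymerase gene Polrmt rose from 71.8, 73.8 and 67.4 CPM to 98.6, 87.9 and 99.1 CPM (log2 difference 0.42, SE 0.048; limma adjusted p = 6.76e-09). Tfb1m and Tfb2m, an rRNA methyltransferase and an initiation factor of mitochondria, rose 1.52-fold and 1.47-fold (limma adjusted p = 5.55e-07 and 6.86e-06). Tfam had a difference of 0.10 in log2 units (SE 0.037, limma adjusted p = 0.0192). Of the factors whose motifs were searched above, Nrf1 had a difference of -0.30 in log2 units (SE 0.045; limma adjusted p = 9.27e-07) and Yy1 one of -0.29 (SE 0.039; limma adjusted p = 8.65e-08). The GABP subunit gene Gabpb1 fell from 62.5, 61.5 and 65.2 CPM to 37.9, 39.1 and 38.3 CPM (log2 difference -0.71, SE 0.049; limma adjusted p = 3.17e-14), whereas its DNA-binding partner Gabpa had a difference of -0.03 in log2 units (SE 0.039; limma adjusted p = 0.496). Esrra, another regulator, rose with a difference of 0.16 in log2 units (SE 0.050, limma adjusted p = 0.00535). In all, 6 of 11 tested regulators (54.5%) were higher and 3 (27.3%) lower, against 37.0% and 35.9% of all tested genes.

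The coactivator gene Ppargc1a, a known driver of mitochondrial gene expression, was nearly absent from the libraries labelled Zfx F5. It had 36, 28 and 31 reads in WT and 1, 0 and 0 in the others, below the filter on low values. Over each group this is 95 against 1 read, a ratio of 91.0 with an exact Clopper-Pearson 95% interval of 15.9 to 3633 for counting error only. With no filter, limma gave it an adjusted p of 2.76e-21. This value cannot be set beside those of the main fit, since for Sdhaf4 limma gave 7.15e-42 with no filter and 3.60e-09 in the main fit. Its relative Ppargc1b rose 1.36-fold (limma adjusted p = 3.47e-05), and Pprc1, another family member, had a difference of 0.02 in log2 units (SE 0.031; limma adjusted p = 0.569).

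**Figure D4:**
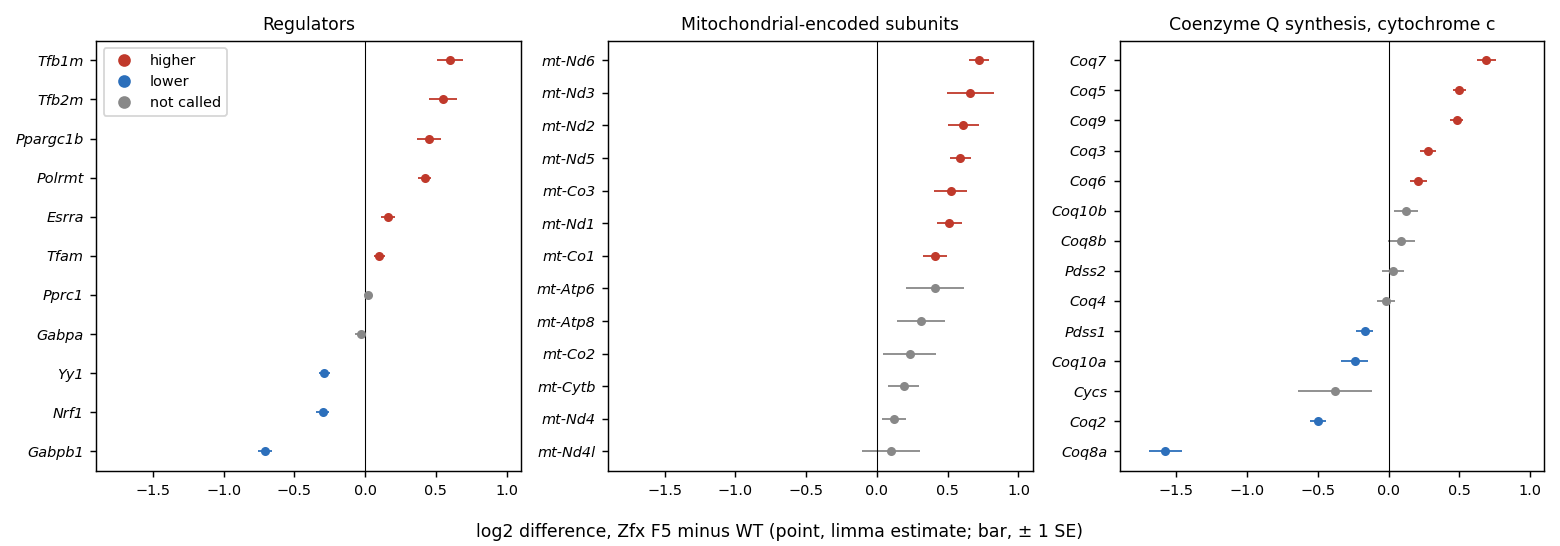
Points are limma log2 differences, libraries labelled Zfx F5 minus WT, with bars of 1 SE on either side, for regulators, subunits encoded by mitochondrial DNA, and genes of coenzyme Q synthesis with cytochrome c. All 13 mitochondrial points lie above 0, Gabpb1 is the lowest regulator at -0.71, and Coq8a is the lowest gene shown at -1.58.

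Between the complexes, electrons travel on coenzyme Q and cytochrome c. Of the 14 tested genes for them, 5 (35.7%) were higher and 4 (28.6%) lower, against 37.0% and 35.9% of all tested genes. The share of higher calls was thus near that of all tested genes. Coq8a, an atypical kinase of coenzyme Q synthesis, fell 2.99-fold, from 9.97, 10.5 and 9.86 CPM to 3.54, 3.29 and 3.25 CPM (log2 difference -1.58, SE 0.116; limma adjusted p = 1.81e-13). Coq2, which attaches the isoprenoid tail, fell 1.41-fold (limma adjusted p = 5.23e-09), and the hydroxylase Coq7 rose 1.61-fold (limma adjusted p = 1.24e-10). The somatic cytochrome c gene Cycs had 92 reads in WT and 67 in the others, a ratio of 1.32 with a 95% interval of 0.95 to 1.83.

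Assembly factors outside the member list gave further calls, to be read beside the 37.0% higher and 35.9% lower of all tested genes. For complex III, 5 of 6 were higher and none lower, led by Uqcc3 with a difference of 0.66 in log2 units (SE 0.123; limma adjusted p = 0.000282) and Lyrm7 with 0.60 (SE 0.114; limma adjusted p = 2.14e-05). For complex I, 6 of 9 were higher and 2 lower, among them Tmem186 at -0.37 (SE 0.055; limma adjusted p = 5.20e-07). For complex IV, 7 of 17 (41.2%) were higher and 4 (23.5%) lower, so the share of higher calls was near that of all tested genes. Among them Higd2a rose with a difference of 0.56 in log2 units (SE 0.055; limma adjusted p = 1.96e-10). Of 4 tested genes for assembly and inhibition of complex V, 1 was higher and 2 lower. Tmem70, which helps assemble the c ring, fell from 138, 132 and 135 CPM to 96.4, 93.8 and 90.8 CPM (log2 difference -0.53, SE 0.039; limma adjusted p = 2.07e-13). Of 11 tested genes for import and the outer membrane, 7 were higher and 1 lower, led by Timm44, part of the import motor, with a difference of 0.50 in log2 units (SE 0.043; limma adjusted p = 7.44e-12).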

How the data were processed

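Gene expression was measured by RNA sequencing in 6 libraries. The authors deposited log2 values for each gene; from the values these are log2(CPM + 0.0353), and after undoing the log2 each column sums to 1000000 CPM, with 100% of values up to 300 reads whole within 0.05 read. Builds named in the submitters' processing notes are mm10 and GRCh38, while aligner and counter (not given in the sources used here) are unknown. Per the labels' protocols, libraries were made with Nextera XT and read single-end over 50 bases. Here limma 3.58.1 (R 4.3.3) was fitted to the deposited log2 values of the 12279 genes with a mean of at least 0, with group as the only term; the variance trend and robust options were on, tests were 2-sided, and p-values were adjusted over all tested genes by the Benjamini-Hochberg method at 0.05. Fold changes are on the scale of log2(CPM + 0.0353) and understate those of low genes. An exact permutation test of 3 against 3 libraries cannot go below p = 0.1. Counts of recovered reads gave exact 95% intervals for genes with few reads. Positions are from GENCODE M21 (mm10), and windows of 50 bases of each member's exons were searched in all other genes.

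The members and lists were chosen with earlier results of these data known. Genes named are, per complex, up to 4 higher and 4 lower with the largest differences, core subunits, isoform pairs, genes below the filter and up to 3 leading genes per related list. Other members and related genes named in the text (Ndufb9, Ndufaf1, Ndufaf4, Sdhaf2, Uqcrc1, Cox10, Cox15, Cox7a2l, Cox6c, the stalk and small membrane subunits of complex V, Ppargc1a, Ppargc1b, Polrmt, Tfam, Esrra, Pprc1, Gabpa, Nrf1, Yy1, Cycs, Pet117, Atpaf1, mt-Cytb and the uncalled markers) were chosen after their values were seen. The alternatives were TMM scaling, median centring, other pseudocounts and filters, no trend, voom and leaving out each library. The values of 1 member, counted in the totals, are not reported here.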

Additional observations from a re-analysis of the deposited data

How the results depend on the processing

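Over 15 alternative settings, 175 of 184 comparisons of counts and of the median stayed within their limits. Of the calls, 50 of the 58 higher and 10 of the 14 lower members held in each of the 14 alternative fits that tested them. The median log2 difference of the tested members was 0.20 and came to 0.17 under TMM scaling and 0.17 with 5 CPM added, and complex III had 1 lower member under median centring. With each library left out in turn, 51 to 60 members were higher and 10 to 14 lower, and the median was 0.18 to 0.25. Lower members numbered 4 to 7 in complex I, with the 4 found without Zfx F5 replicate 3, 1 to 2 in complex III and 0 to 1 in complex V, where the 1, Atp5g1, was found without WT replicate 3 (limma adjusted p = 0.0255). The causes were not tested. For the 80 named genes, 1079 of 1117 comparisons kept the side of the threshold, 33 lost the call and 5 gained it. In 0 comparisons did a gene called in either fit change direction. A change of sign without a call in either fit was counted as kept, as for Sdha (log2 difference -0.02, and 0.01 under median centring).

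The planned edgeR and DESeq2 fits were not run. In their place voom was fitted to the recovered reads, an alternative added after seeing the data. No paired analysis was possible because the labels carry no replicate numbers, and those used here follow accession order. Genes with a mean log2 value under 0 were left out by the filter, not by depth, and p-values cover the spread between libraries of 1 line per genotype.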
